A study of Mus musculus with 6 samples.

Results

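Phospholipid flippases and scramblases set which lipids face the outside of a cell, and 10 of their genes were followed here in mouse lung group 2 innate lymphoid cells (ILC2s). The 10 genes were taken by symbol from the deposited gene table. They are the flippases Atp8a1, Atp8a2, Atp8b2, Atp8b4, Atp10a, Atp10d, Atp11a and Atp11b, the flippase subunit gene Tmem30a and the scramblase gene Xkr8. All 10 were found among the 39527 genes of the table, and all 10 were among the 14961 genes with an adjusted p-value, called tested genes below. The genes were proposed with the fold changes and p-values of this comparison known. Those values are therefore a description of the 10 genes, and no test is drawn from them.

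ILC2s were sorted from lungs of 2 groups of mice, each with 3 samples. The WT samples carry the genotype R5/+ and the KO samples R5/+LKB1f/f, so that the R5 allele, which the labels do not explain, is shared by both. All mice had 4 days of IL-33, a cytokine that activates ILC2s, and each sample pooled 3 to 4 mice. The labels name neither age nor strain. They do not state which Cre acts on the floxed LKB1 alleles, or whether the R5 allele carries it. The values are the authors' comparison of the genotypes, with 1 log2 fold change, 1 standard error and 1 mean normalized count per gene; values of single samples and their depth were not used here. The sources do not state which genotype is the numerator, and signs are given as deposited. Stk11, which encodes LKB1 and is the floxed gene, had -1.34 ± 0.30 (SE) in the authors' deposited table, so that a positive sign below is the sign opposite to that of Stk11.

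In a resting cell, phosphatidylserine and phosphatidylethanolamine are kept on the cytosolic side of the plasma membrane. P4-ATPases, the flippases, use ATP to move lipids to that side. Most of them need a CDC50 subunit, usually the product of Tmem30a, to fold and leave the endoplasmic reticulum. Scramblases let lipids move in both directions. In dying cells, Xkr8 is cleaved and then exposes phosphatidylserine as a signal for engulfment, while calcium opens the scramblase encoded by Ano6 in living cells.

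The 8 flippases share the site at which every P-type ATPase is phosphorylated during its cycle, an aspartate followed by lysine, threonine, glycine and threonine. The coding stretch around it is shown because it marks these genes as 1 enzyme family. The longest annotated coding sequence of each flippase (GENCODE M21, mm10) held the 5 codons exactly once in frame, and those of Tmem30a and Xkr8 did not hold them. Capitals mark the 15 bases of the 5 codons, with 15 coding bases on each side, 5′ to 3′ on the coding strand.
Atp8a1: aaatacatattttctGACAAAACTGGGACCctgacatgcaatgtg
Atp8a2: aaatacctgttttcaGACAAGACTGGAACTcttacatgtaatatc
Atp8b2: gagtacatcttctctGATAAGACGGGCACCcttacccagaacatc
Atp8b4: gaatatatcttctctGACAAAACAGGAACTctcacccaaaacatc
Atp10a: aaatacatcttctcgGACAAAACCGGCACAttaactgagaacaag
Atp10d: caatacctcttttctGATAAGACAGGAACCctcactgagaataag
Atp11a: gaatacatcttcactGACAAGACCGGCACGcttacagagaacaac
Atp11b: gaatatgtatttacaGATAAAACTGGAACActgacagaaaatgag

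In each gene the 15 bases lie within a single coding exon. In mm10 the stretch of Atp8a2 lies in exon 13 of 36 (chr14:60023490-60023534, minus strand) and that of Atp8a1 in exon 14 of 37 (chr5:67761155-67761199, minus strand). The stretch of Atp10d lies in exon 9 of 23 (chr5:72247206-72247250, plus strand). The first 2 bases of each codon are fixed by the amino acids searched, whereas 0 of the 5 final codon bases were identical in all 8 genes, and the 8 genes had 8 different versions of the 15 bases.

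The whole coding sequences of the flippases were compared in pairs. Exonic bases outside the coding sequence were not compared, and whether reads of 1 gene were counted for another was not tested. Identity over 28 pairs, in global alignments with gaps counted as differences, ran from 45.8% to 67.0% with a median of 52.1%. Atp8b2 and Atp8b4 were the closest pair, followed by Atp8a1 and Atp8a2 at 66.4%. The longest stretch of identical bases was 33 in any pair and 19 between Atp8a1 and Atp8a2.

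Atp8a2 stood apart from the other 9 genes. This flippase of phosphatidylserine and phosphatidylethanolamine is best known from neurons and photoreceptors. Its gene spans 558.6 kb of mm10 (chr14:59638540-60197179, minus strand). Its value in the authors' deposited table was 3.91 ± 0.32 (SE) on the log2 scale, a 15.1-fold difference with a 95% interval of 9.74 to 23.3 and an adjusted p of 3.45e-31. Among the 14961 tested genes this was the fifth highest positive fold change. Its mean over the libraries was 218.7 normalized counts in the authors' deposited table. That mean pools the genotypes, so that the level of Atp8a2 in either one is not given.

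Exons of Atp8a2 overlap those of 3 other annotated genes, and no source used here says whether the counting took strand into account. The overlap with Nupl1, a nucleoporin gene on the same strand, covers 241 bases. Nupl1 had -0.01 ± 0.15 (SE) at 979.3 normalized counts in the authors' deposited table, so that its own counts did not share the difference. The pseudogene Gm19716 covers 2073 of the 15410 exonic bases of Atp8a2 on the opposite strand and was not among the rows of the table. Whether reads from Gm19716 were counted for Atp8a2 was not tested. The antisense gene 4930563I02Rik covers 96 bases and had a mean of 0.37 normalized counts in the authors' deposited table.

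Atp8a1, the nearest relative of Atp8a2 among the 10 genes, moves the same lipids and is widely expressed. In the authors' deposited table it had 0.28 ± 0.12 (SE), a 1.21-fold difference, with an adjusted p of 0.0829. The fold changes of the pair differed by 3.63 on the log2 scale (95% interval 2.96 to 4.31, standard errors combined as if independent). The level ran the other way. Per kilobase of exon, Atp8a1 had a mean of 106 normalized counts and Atp8a2 14.2, so that the mean of Atp8a1 was 7.49 times that of Atp8a2. These means pool the genotypes, between which Atp8a2 differed 15.1-fold, so that 7.49 is not the ratio within either genotype.

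Atp11a and Atp11b belong to a second flippase group. Atp11a acts on phosphatidylserine at the plasma membrane and Atp11b on endosomes. Atp11a had -0.25 ± 0.25 (SE) at 212.2 normalized counts and Atp11b -0.12 ± 0.13 at 2743 in the authors' deposited table. The 95% interval of Atp11b, from -0.38 to 0.14, leaves room for a 1.30-fold difference in the direction of Stk11 and a 1.10-fold difference in the other. That of Atp11a was wider, from -0.73 to 0.23. Both genes lay on the side of Stk11, but within their errors.

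The Atp8b and Atp10 groups hold flippases with other substrates, among them phosphatidylcholine for Atp8b2 and Atp10a. Atp8b2 had -0.07 ± 0.20 (SE) and Atp8b4 0.32 ± 0.17 in the authors' deposited table. The fold change of Atp8b4, 1.25, had a 95% interval of 0.998 to 1.57 and thus narrowly held no change. Atp10a had 0.32 ± 0.15 (SE) at 1598.5 normalized counts in the authors' deposited table, with a deposited adjusted p of 0.107. Its interval, from 0.03 to 0.61, lay above 0 before the adjustment over all genes.

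Atp10d had 0.44 ± 0.14 (SE), a 1.36-fold difference with a 95% interval of 1.12 to 1.65, at 1033 normalized counts in the authors' deposited table. Its deposited adjusted p was 0.0117, the only one below 0.05 beside that of Atp8a2. The gene (chr5:72203329-72298775, plus strand) is listed as a polymorphic pseudogene in the deposited table and in GENCODE M21. In the reference genome its coding sequence of 1469 codons carries an in-frame stop at codon 817, after 55.5% of the codons. The stop lies in exon 12 of 23 and is shown in capitals with 15 coding bases on each side (chr5:72264456-72264488).
Atp10d: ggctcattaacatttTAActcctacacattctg

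The stop follows the phosphorylation site, which begins at codon 491. The other 9 coding sequences had 0 in-frame stops. The reference shows 1 strain, and the allele in these mice was not analysed here. A count of reads from Atp10d therefore measures its RNA and says nothing of the length of its protein.

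Tmem30a, which encodes the subunit that most flippases need, had the value nearest to 0 of the 10 genes. The authors' deposited table gives -0.02 ± 0.12 (SE) at a mean of 6802 normalized counts. The 95% interval, from -0.25 to 0.21, leaves room for at most a 1.19-fold difference in the direction of Stk11 and a 1.15-fold difference in the other. Tmem30a (chr9:79768943-79793507, minus strand) thus lay close to 0, while the interval of Atp8a2 began at 9.74-fold.

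Xkr8, the scramblase of dying cells (chr4:132724897-132732546, minus strand), had 0.32 ± 0.46 (SE) at 54.8 normalized counts in the authors' deposited table. It had the lowest count and the widest error of the 10 genes. Its 95% interval ran from 0.664-fold to 2.33-fold.

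**Figure D1:**
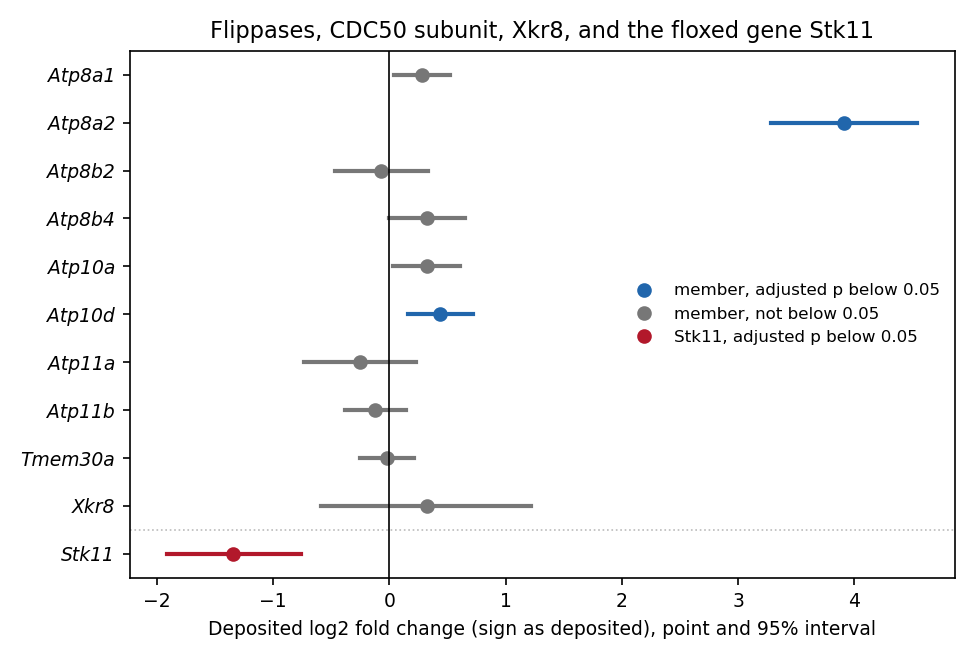
Deposited log2 fold change of the 10 genes and of Stk11, with points for the estimate and lines for the 95% interval from the deposited standard error. Atp8a2 lies at 3.91, the other 9 genes between -0.25 and 0.44, and Stk11 at -1.34.

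Of the 10 genes, 2 had an adjusted p below 0.05 in the authors' deposited table, both positive, against 24.5% of all tested genes in either direction and 11.0% in the positive direction. Nothing is read from that count, since the genes were chosen with these values known. By sign alone, 6 of the 10 were positive and 4 negative. Their median log2 fold change was 0.297, against -0.0056 over all tested genes. Their median distance from 0, which is also 0.297, was smaller than the 0.376 over all tested genes, and their median standard error was 0.157 against 0.233. With the trend of fold change on exon length removed, the median of the 10 genes was 0.15. Atp11a and Xkr8, at 0.25 and 0.46, had standard errors above the median of all tested genes.

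The other pairs of close relatives lay nearer to each other than Atp8a1 and Atp8a2. These differences describe values that were known when the genes were chosen, and their 95% intervals all include 0. Atp8b4 lay 0.39 above Atp8b2 (-0.12 to 0.90), Atp10d 0.12 above Atp10a (-0.28 to 0.53) and Atp11b 0.13 above Atp11a (-0.42 to 0.67).

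The levels of the 10 genes spanned a wide range when the mean normalized count was divided by exon length. Tmem30a was highest at 1205 per kilobase, above 94.9% of tested genes with a known length. Atp11b followed at 299 and Atp10a at 286, with Atp10d at 132 and Atp8a1 at 106. Atp8b4 (82.7) and Atp8b2 (80.0) lay near the median of tested genes, which was 67.4 per kilobase. Atp11a (19.0), Atp8a2 (14.2) and Xkr8 (12.7) were the lowest, and Xkr8 exceeded 22.1% of tested genes. The level of Tmem30a was 1.18 times the sum of the 8 flippases per kilobase and 4.03 times that of Atp11b alone. These are the authors' means over the libraries of their fit, so that no spread over samples and no level per genotype can be given.

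**Figure D2:**
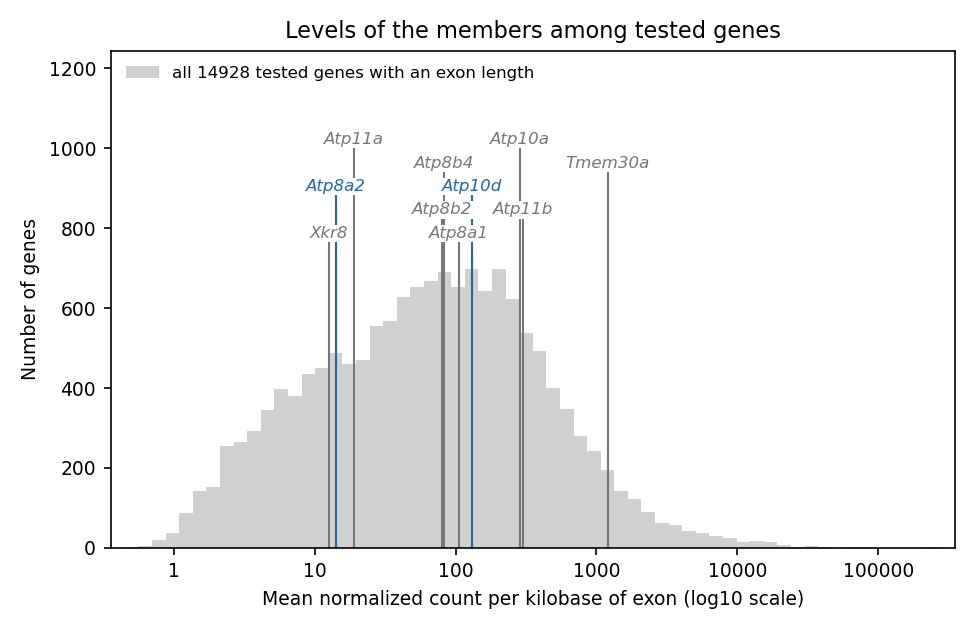
Histogram of the mean normalized count per kilobase of exon over 14928 tested genes (log10 axis), with a labelled line for each of the 10 genes, blue where the adjusted p was below 0.05. Tmem30a stands at 1205 and Atp8a2 at 14.2, so that the gene with the largest fold change is among the 3 with the lowest mean over both genotypes.

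Fold changes in this table moved with gene length. Over 14928 tested genes the Spearman rho between log2 fold change and exon length was 0.187, a description across genes that share the same libraries. Genes of the shortest 25% had a median of -0.159, those of the longest 25% one of 0.157. Of the 10 genes, 7 fell in the longest 25%, at 6650 exonic bases or more. At the length of Atp8a1 the trend stood at 0.235, so that 0.04 of its 0.28 remained after subtraction. Atp10d went from 0.44 to 0.34, with an adjusted p of 0.0655 from the same standard errors, and no longer passed. Atp8a2 went from 3.91 to 3.66 and passed as before. The part that length plays in the small positive values was not tested.

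**Figure D3:**
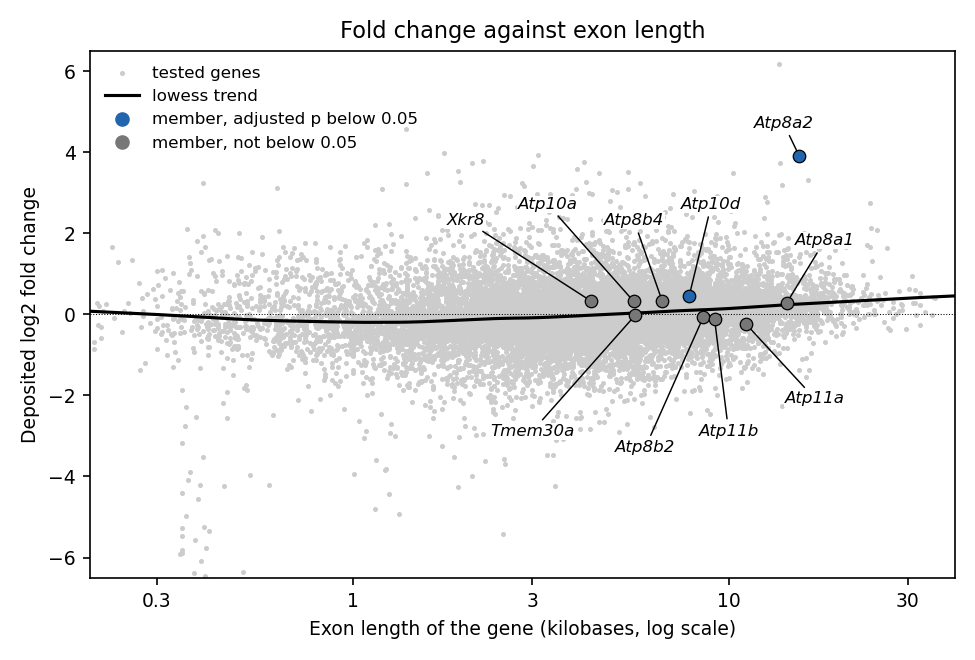
Deposited log2 fold change against exon length (log axis) for tested genes in grey, with the lowess trend in black and the 10 genes labelled. Atp8a1 sits on the trend and Atp8a2 far above it; 140 tested genes lie outside the axes.

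The other genes of phospholipid transport were taken from lists chosen by function, with 105 genes, of which 104 were in the table and 88 tested. Of these, 13 were positive and 4 negative at an adjusted p below 0.05 in the authors' deposited table. These shares, 14.8% and 4.5%, stand beside 11.0% and 13.5% of all tested genes, and 19.3% in either direction beside 24.5%. Their median log2 fold change was 0.154 against -0.0056. With the length trend removed that median was 0.044, and 9 genes were positive and 6 negative.

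Of the 7 other flippases, 6 were tested and all 6 had a fold change above 0, with 1 of them past the threshold. Atp9b, a flippase of the Golgi that works without a CDC50 subunit, had 0.75 ± 0.16 (SE, adjusted p 3.7e-05) at 2107 normalized counts in the authors' deposited table. Atp8b1, Atp8b5 and Atp10b had means between 12.4 and 14.4 normalized counts and standard errors of 0.84 to 1.07 in the authors' deposited table, so that their signs carry little. Of the other CDC50 subunit genes, Tmem30b had -1.01 ± 0.91 (SE) at 13.8 normalized counts in the authors' deposited table, and Tmem30c was not tested.

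Among scramblases, 0 of 5 tested genes of the XK family and the Xkr8 partners passed. Bsg, which encodes basigin, a partner that carries Xkr8 to the plasma membrane, had -0.33 ± 0.14 (SE, adjusted p 0.0635) at 5497 normalized counts in the authors' deposited table. Of 6 tested TMEM16 genes 1 passed: Ano6, the calcium-activated scramblase, at 0.33 ± 0.12 (SE) and 1986 normalized counts in the authors' deposited table. Of 4 tested PLSCR genes 1 passed, Plscr4, at 0.74 ± 0.22 (SE) in the authors' deposited table. Plscr1, the most abundant of them, did not pass and had 0.36 ± 0.18 (SE) at 4336 normalized counts in the authors' deposited table. After subtraction of the length trend Ano6 stood at 0.133, with an adjusted p of 0.47.

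Both called scramblases of the endoplasmic reticulum had the sign of Stk11. Tmem41b had -0.63 ± 0.16 (SE) and Vmp1, the most abundant gene of its list, -0.54 ± 0.13 at 2517 normalized counts in the authors' deposited table. Both act in autophagy and lipoprotein release. In the list of scramblases and bridge-like transfer proteins 3 of 10 tested genes were below 0, and these were the 2 of them past the threshold. Vps13b, a lipid transfer protein of the Golgi in the same list, was positive at 0.70 ± 0.16 (SE) in the authors' deposited table. Vps13b stood at 0.377 after subtraction of the length trend, with an adjusted p of 0.0746, whereas the negative pair passed as before.

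Of the 9 ABC exporters, which move lipids outward, 3 were positive and 0 negative past the threshold. These shares, 33.3% and 0.0%, stand beside 11.0% and 13.5% of all tested genes. Abca1, which loads cholesterol and phospholipid onto apolipoproteins, had 1.64 ± 0.34 (SE) and Abcb1a, a P-glycoprotein gene, 0.98 ± 0.25 in the authors' deposited table. Abcg1, a sterol exporter, had 0.43 ± 0.15 (SE) in the authors' deposited table and an adjusted p of 0.0891 after subtraction of the length trend. Abca7, the most abundant exporter of the list, did not pass, at 0.41 ± 0.18 (SE) and 4163 normalized counts in the authors' deposited table. Enzymes that make phosphatidylserine, phosphatidylethanolamine and phosphatidylcholine had 0 of 13 tested genes past the threshold in either direction, against 24.5% of all tested genes. The authors' deposited table gives these enzymes fold changes from -0.79 to 0.26. Pcyt1a, the rate-limiting enzyme of phosphatidylcholine synthesis, had the highest mean count among them, though not the highest per kilobase of exon. Its fold change was -0.12 ± 0.15 (SE) in the authors' deposited table.

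Receptors and bridging proteins that read exposed phosphatidylserine had 11 fold changes above and 4 below 0 among 15 tested genes. Past the threshold, 3 were positive and 0 negative (20.0% and 0.0%, against 11.0% and 13.5% of all tested genes). Pros1, which encodes protein S, a bridge to the TAM receptors, had 0.83 ± 0.18 (SE) and the TAM receptor gene Axl 0.52 ± 0.16 in the authors' deposited table. Stab2, a scavenger receptor and the most abundant of the list at 16026 normalized counts, had 0.93 ± 0.21 (SE) in the authors' deposited table.

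Other P-type ATPases, which carry ions, polyamines or helices rather than lipids, had 6 fold changes above and 10 below 0 among 16 tested genes. Past the threshold, 3 were positive and 1 negative (18.8% and 6.2%, against 11.0% and 13.5% of all tested genes). The copper pump gene Atp7a had 1.02 ± 0.24 (SE), Atp13a1 0.40 ± 0.10 and the lysosomal polyamine exporter gene Atp13a2 0.57 ± 0.22 in the authors' deposited table. The calcium pump gene Atp2b4 had -0.52 ± 0.17 (SE), and the most abundant, Atp2a3, -0.09 ± 0.14 at 13732 normalized counts in the authors' deposited table. Atp13a2 had an adjusted p of 0.0745 after subtraction of the length trend.

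**Figure D4:**
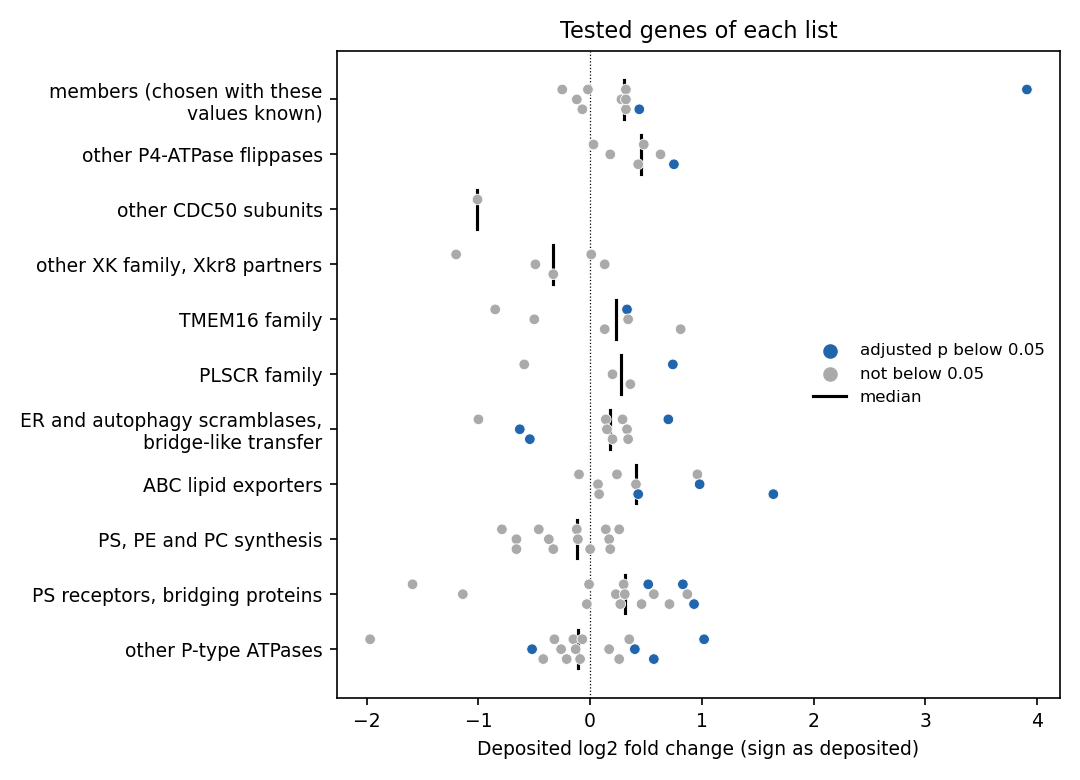
Deposited log2 fold change of every tested gene of each list shown, with 1 point per gene, blue where the adjusted p was below 0.05, and a bar at the median of the list. Atp8a2 at 3.91 is the highest value plotted, the next highest being Abca1 at 1.64.

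Of the ILC2 markers, 10 of 10 were tested, with a median of 14719 normalized counts. They ran from Gata3 at 44552 through Il1rl1 at 16936 and Il13 at 618.6 to Thy1 at 291.2 in the authors' deposited table. Past the threshold, Gata3 (0.63 ± 0.16, SE) and Icos (0.54 ± 0.15) were positive, and Il13 (-1.06 ± 0.18) and Thy1 (-1.98 ± 0.75) negative in the authors' deposited table. Markers of other cells were present too. Of the 67 markers of 9 other cell types 0 were at a mean of 0, and their summed level per genotype could not be formed without values of single samples. Of the 55 tested, 46 had a fold change below 0, with 12 negative and 0 positive past the threshold. Over all tested genes, 13.5% were negative and 11.0% positive past it. The marker with the smallest p in each list ran from -2.65 for the T cell gene Trat1 and -2.63 for C1qa of macrophages to -0.32 for the endothelial Pecam1 in the authors' deposited table. Pecam1 did not pass, nor did Krt8 of epithelium, and the endothelial and epithelial lists had 0 genes past the threshold. Between them lay Krt8 (-2.19), H2-Ab1 (-1.74), Pdgfrb (-1.63), Ccr3 (-1.45) and Cd79b (-0.88) in the authors' deposited table. A marker picked by its p does not stand for its list. The T cell list had a median of -0.277, with 3 of 8 tested markers above 0. The dendritic cell list had -0.317, with 2 of 5 above 0. The list of macrophages, monocytes and neutrophils had -1.14, with 1 of 11 above 0. The 5 erythroid genes had no p-value, and their fold changes were positive, from 1.04 for Hba-a2 to 1.96 for Alas2 in the authors' deposited table. Atp8a2 and Atp10d were positive, like the erythroid genes and 7 of the 10 ILC2 markers and unlike most markers of other cells. The part of other cells in the values of Atp8a2 and Atp10d was not tested. In sorted bulk samples, fewer cells of a type and less RNA per cell cannot be told apart.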

How the data were processed

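The labels give RNA sequencing of 6 samples (3 WT, 3 KO), with SMART-Seq HT cDNA and TruePrep libraries. HISAT2, Cufflinks and mm10 are named without versions, per the submitters' processing notes. Counting tool, annotation, strand and filters were not given in the sources used here. Per the file headers, each gene's deposited values are its mean normalized count (a signal, averaged by the authors across libraries) and the log2 fold change and its standard error. The authors also deposited the test score, and both the raw and the adjusted p-value. The score equalled the fold change over its standard error to within 2.4e-07, and the adjusted p a Benjamini-Hochberg adjustment over 14961 genes (mean of at least 10.46) to within 7.6e-07.

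A further 12 columns of per-sample values matched no label and were not used. The planned fits on samples were therefore replaced by the deposited comparison, called at an adjusted p below 0.05. No source used here names the libraries behind it, so its p-values may not rest on 3 samples against 3. Nothing says that the pools came from separate experiments, and the p-values may measure technical spread.

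Intervals of 95% used the standard error and a normal distribution. Exon lengths came from GENCODE M21 (99.27% of genes). The length trend was a lowess with a fraction of 0.3, tested on simulated data. Named genes were the 10 members, Stk11 and the marker with the smallest p of each cell type. The gene with the highest mean count and up to 3 called genes of each list were named too. Tmem30c, Atp8b1, Atp8b5, Atp10b, Nupl1, Gata3, Il1rl1, Il13, Thy1, Icos, Hba-a2, Alas2 and the genes that overlap Atp8a2 were named after their values were seen. Some genes of the lists are counted in the totals and not reported here by name. Members and lists were chosen with earlier results of these data known. Intervals and trends were computed in Python 3.11.15 with statsmodels 0.14.6, scipy 1.17.1, numpy 2.4.6 and pandas 2.3.3, alignments with Biopython 1.88 and figures with matplotlib 3.10.9.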

Additional observations from a re-analysis of the deposited data

How the results depend on the processing

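The counts of called genes, the list medians and 51 single genes were recomputed under 5 alternatives: an adjusted p below 0.01, an adjustment over all 39444 genes with a p-value, only genes with a mean of at least 100 normalized counts, re-centring on the median, and removal of the length trend. At 0.01 the table had 1016 positive and 1347 negative genes in place of 1644 and 2024, and 1 of the 10 genes passed, Atp8a2. With the length trend removed 1 of the 10 passed as well, again Atp8a2. In both cases Atp10d was the gene lost, and under the other 3 alternatives both genes passed. Of 248 values of the 51 genes, 230 kept their direction and their side of the threshold and 16 lost the call. The first 3 alternatives leave the fold change of each gene as it is, so that no direction could change under them. At 0.01 a gene not called at 0.05 could not gain the call. Bsg passed with the minimum of 100 counts (adjusted p 0.0477), and Nupl1, near 0, changed sign to 0.05 with the length trend removed. For markers, for uncalled genes outside the 10 and for genes named after their values were seen, the alternatives were applied after seeing the data. Differences between pairs of genes were not recomputed. Xkr8 was below the minimum of 100 counts and has no value there. Levels above the median of tested genes were found for 7 of the 10 genes with and without division by exon length. No paired analysis was possible because the deposited comparison carries no replicate numbers, and for the same reason no sample could be left out. Other count tools and pseudocounts were not run, since no column of sample values matched a label.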

Other observations

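Promoter windows of 300 bases, mostly upstream of the start (RefSeq, GRCm38.p6), were at hand for 7 of the 10 genes, in 8 windows, since Atp8b2 has 2 starts. Atp8a2, Atp10d and Xkr8 had no entry. The Atp8b4 window differed from the other windows in CpG content, with 4 CpG sites and 48.0% GC. The other windows held 20 (Atp10a) to 39 (Atp11a) CpG sites. The Atp8b4 window (chr2:126491504-126491803) lies inside the GENCODE M21 gene (chr2:126320973-126500674, minus strand), downstream of its annotated 5′ end. The Atp10a window (chr7:58657952-58658251) likewise lies inside its gene (chr7:58656166-58829420, plus strand). The median of 32851 promoters was 7 sites. Motifs were searched on both strands. The E-box CACGTG was in 0 of the 8 windows and in 7.2% of all promoters, and the GATA motif AGATAA in 0 of 8 and in 11.2%. The half-site TGACG of the cyclic AMP response element was in 3 of 8, in Atp11a, Atp8b2 and Tmem30a, and in 20.8% of all. The AP-1 motif TGACTCA was in 1 of 8, that of Atp8b4, and in 5.2% of all. These matches describe letters in the windows and no binding.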
